A study of Mus musculus with 27 samples.

Results

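Cytochrome c oxidase, complex IV of the respiratory chain, was followed here through 10 nuclear genes. Their transcripts were measured in separate samples of tibialis anterior muscle, either uninjured or taken after volumetric muscle loss (VML). The genes were taken by symbol from a table of 54532 genes, and each symbol matched a single entry. They comprised 3 isoforms restricted largely to heart and skeletal muscle (Cox6a2, Cox7a1 and Cox8b), the 3 ubiquitous isoforms of the same subunits (Cox6a1, Cox7a2 and Cox8a), and 4 further genes (Cox4i1, Cox4i2, Cox6b1 and Cox7a2l). All 10 passed the filter on low values and were tested.

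The muscles came from male C57BL/6 mice aged 8 weeks. In the VML groups 40% of the tibialis anterior muscle had been excised, and the muscle was explanted 3, 7, 14 or 21 days later, while the control muscles had no injury. There were 5 samples with no injury, 5 on day 3, 6 on day 7, 6 on day 14 and 5 on day 21. The study's methods state a bilateral excision, whereas the public record states a unilateral excision, and the labels name no animals, so the p-values below measure the spread between these 27 samples.

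Cytochrome c oxidase passes electrons from cytochrome c to oxygen and pumps protons across the inner mitochondrial membrane. Its catalytic core is encoded by the mitochondrial genome, and the nuclear genes add small subunits that stabilise and regulate the enzyme. For subunits VIa, VIIa and VIII, mice carry a muscle isoform and a ubiquitous isoform. Maturing muscle fibres replace the ubiquitous form with the muscle form, whereas most other cell types keep the ubiquitous form.

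Expression was given as FPKM (fragments per kilobase, scaled between samples by the authors). The divisor recovered from the FPKM was not the number of reads of a sample and differed between groups. Divided by the recovered reads, it was 0.75 to 0.82 without injury and 1.14 to 1.48 on day 3. It was 0.81 to 1.44 on day 7, 0.81 to 1.33 on day 14 and 0.78 to 0.96 on day 21. The samples held between 14376395 and 24436763 reads recovered from the FPKM (median 17398586). The muscle fibre markers (10 genes such as Ckm and Acta1) summed to 100657 to 118135 FPKM without injury and 24637 to 72599 on day 3, and leukocyte markers (8 genes such as Cd68 and Lyz2) to 16.3 to 25 and 321 to 2162. By distance to the group means over all tested genes, 9 of the 27 samples lay nearer another group than their own, 1 on day 3, 3 on day 7, 3 on day 14 and 2 on day 21. Among these, day 3 replicate 5 lay nearest day 7, day 7 replicate 5 nearest day 3, day 7 replicate 3 nearest no injury and day 7 replicate 6 nearest day 21. In bulk tissue, fewer muscle fibres and less RNA per fibre cannot be told apart.

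The paired isoforms lie at separate loci (GRCm38). The muscle isoforms are all on chromosome 7, with Cox6a2 at chr7:128205435-128206387, Cox7a1 at chr7:30184144-30186078 and Cox8b at chr7:140898945-140900446. The ubiquitous isoforms are spread over 3 chromosomes, with Cox6a1 at chr5:115345642-115348981, Cox7a2 at chr9:79755361-79759878 and Cox8a at chr19:7215158-7217616. Of the 4 further genes, Cox6b1 lies at chr7:30616861-30626151, Cox4i1 at chr8:120668222-120674207, Cox4i2 at chr2:152754173-152765037 and Cox7a2l at chr17:83501919-83514333. The libraries were non-directional, so reads of Cox4i1 and the overlapping Emc8 (1.96 to 4.06 FPKM), and of Cox6a2 and the overlapping Itgad (0 to 0.10 FPKM), could not be separated by strand.

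Promoter sequence from RefSeq (GRCm38.p6, 250 bases before the start) was matched for 7 of the 10 genes. It is shown for both muscle isoforms that matched and for the 3 ubiquitous isoforms, which form the pairs compared here. The relation of these sequences to the changes after injury was not tested. Each runs 5′ to 3′ on the strand of its gene, and the capitals mark CpG dinucleotides. Cox7a1 covers chr7:30183921-30184170 on the plus strand. The others lie on the minus strand, with Cox8b at chr7:140900447-140900696, Cox6a1 at chr5:115348959-115349208, Cox7a2 at chr9:79759854-79760103 and Cox8a at chr19:7217617-7217866.
Cox7a1: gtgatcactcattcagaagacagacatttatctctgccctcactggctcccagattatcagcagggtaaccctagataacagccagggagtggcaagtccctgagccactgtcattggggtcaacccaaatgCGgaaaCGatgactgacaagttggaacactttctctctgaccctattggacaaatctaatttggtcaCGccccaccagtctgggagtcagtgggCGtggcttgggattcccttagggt
Cox8b: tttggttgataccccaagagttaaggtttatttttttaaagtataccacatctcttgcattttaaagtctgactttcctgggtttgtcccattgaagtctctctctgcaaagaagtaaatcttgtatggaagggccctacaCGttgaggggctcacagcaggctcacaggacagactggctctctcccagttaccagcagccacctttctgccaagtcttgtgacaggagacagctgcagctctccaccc
Cox6a1: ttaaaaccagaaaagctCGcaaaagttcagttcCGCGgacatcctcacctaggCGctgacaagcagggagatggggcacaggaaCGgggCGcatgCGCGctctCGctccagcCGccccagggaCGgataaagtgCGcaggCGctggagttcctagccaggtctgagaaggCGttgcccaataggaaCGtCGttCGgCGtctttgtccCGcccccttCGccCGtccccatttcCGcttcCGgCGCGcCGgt
Cox7a2: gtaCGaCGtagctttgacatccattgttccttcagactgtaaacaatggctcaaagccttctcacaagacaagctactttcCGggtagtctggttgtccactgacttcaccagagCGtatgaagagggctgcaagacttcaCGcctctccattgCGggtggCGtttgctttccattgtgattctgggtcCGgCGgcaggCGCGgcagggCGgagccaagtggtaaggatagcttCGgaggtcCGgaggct
Cox8a: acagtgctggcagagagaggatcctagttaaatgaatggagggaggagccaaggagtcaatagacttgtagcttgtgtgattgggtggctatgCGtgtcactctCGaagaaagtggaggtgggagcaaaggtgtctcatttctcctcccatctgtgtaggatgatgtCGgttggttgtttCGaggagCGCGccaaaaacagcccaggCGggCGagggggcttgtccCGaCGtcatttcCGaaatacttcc

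The promoters of the muscle isoforms held few CpG dinucleotides, 4 in Cox7a1 and 1 in Cox8b, at a GC content of 51.2% and 47.2%. Those of the ubiquitous isoforms held 26 in Cox6a1, 14 in Cox7a2 and 11 in Cox8a, at 62.8%, 54.8% and 52.8%. The median over 32851 mouse promoters of this length was 6 CpG dinucleotides and 52.4% GC. The numbers for Cox6b1 and Cox7a2l, which have no muscle form among these genes, were 14 and 13.

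Motifs were searched on both strands. The E-box CANNTG occurred in 66.22% of all promoters of this length and in 6 of the 7 matched here, 2 times in Cox6b1, 1 time each in Cox7a1, Cox7a2, Cox7a2l, Cox8a and Cox8b, and not in Cox6a1. The palindromic NRF1 site, found in 0.7823% of promoters, occurred in Cox6a1 from base -162 relative to the start and in none of the other 6. Neither the ERR element TCAAGGTCA (0.3866% of promoters) nor the MEF2 site (3.202%) was matched in any of the 7.

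Without injury, the muscle isoforms were the most abundant of the 10 transcripts in FPKM. Cox8b averaged 3532 ± 845 FPKM (SD, n = 5), Cox6a2 3068 ± 441 and Cox7a1 1830 ± 569. Cox6b1, which encodes subunit VIb at the interface of the enzyme dimer, followed at 1268 ± 350, and Cox4i1, the common isoform of subunit IV, at 1232 ± 300. Cox7a2 averaged 430 ± 65.2, Cox7a2l 164 ± 25.1, Cox8a 128 ± 25.7 and Cox6a1 90.0 ± 22.7, and Cox4i2, the oxygen-sensitive isoform of subunit IV, was lowest at 12.7 ± 3.76. The intervals of mean ± SD overlapped for the neighbouring pairs Cox8b and Cox6a2, Cox7a1 and Cox6b1, Cox6b1 and Cox4i1, Cox7a2l and Cox8a, and Cox8a and Cox6a1. Within each sample the order was kept in 5 of 5 samples for every neighbouring pair except Cox6b1 over Cox4i1, which held in 4 of 5. Recovered reads were 678 or more in every sample for 9 genes, and 78 to 392 for Cox4i2.

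The 3 muscle isoforms fell after VML, had their lowest mean on day 3, and had no detectable difference from uninjured muscle on day 21. Cox7a1 dropped 3.53-fold by day 3, Cox8b 3.45-fold and Cox6a2 2.67-fold. Over the same 3 days the ubiquitous isoforms split, with Cox6a1 and Cox8a rising 2.23-fold and 2.25-fold while Cox7a2 fell 2.12-fold.

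Cox6a2, the muscle isoform of subunit VIa, measured 3754, 2754, 3222, 2650 and 2962 FPKM without injury and 1520, 1674, 837, 554 and 1635 on day 3. It ranged from 614 to 3724 on day 7 (median 1370) and from 777 to 3299 on day 14 (median 1857), and measured 2429, 2520, 2535, 2668 and 2650 on day 21. All 5 samples on day 3 lay below the uninjured range, as did 4 of 6 on day 7, 5 of 6 on day 14 and 3 of 5 on day 21. The spread between samples was widest on day 7, with a coefficient of variation of 71.6%, and narrowest on day 21, with 3.86%.

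Cox7a1, the muscle isoform of subunit VIIa, measured 2721, 1397, 2079, 1437 and 1517 FPKM without injury and 609, 670.0, 366, 221 and 939 on day 3. It ranged from 287 to 1345 on day 7 (median 623) and from 433 to 1716 on day 14 (median 1096), and measured 1116, 1602, 1347, 1134 and 1885 on day 21. No sample on day 3 or day 7 reached the uninjured range, whereas 1 of 6 on day 14 and 2 of 5 on day 21 lay within it.

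Cox8b, the muscle isoform of subunit VIII, measured 4277, 2929, 4596, 2733 and 3124 FPKM without injury and 1224, 1378, 724, 511 and 1604 on day 3. It ranged from 514 to 3208 on day 7 (median 1279) and from 716 to 3169 on day 14 (median 1979), and measured 2328, 3244, 2440, 2735 and 3146 on day 21. All 5 samples on day 3, 5 of 6 on day 7, 5 of 6 on day 14 and 2 of 5 on day 21 lay below the uninjured range.

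Cox6a1, the ubiquitous isoform of subunit VIa, measured 128, 69.4, 92.8, 78.5 and 81.6 FPKM without injury and 196, 178, 220.2, 237 and 165 on day 3. It ranged from 70.7 to 232 on day 7 (median 112) and from 67.3 to 163 on day 14 (median 109), and measured 117, 117, 103, 98.0 and 129 on day 21. All 5 samples on day 3 lay above the uninjured range, and 1 sample at each later day did so. The highest value on day 7 belonged to replicate 5, the sample that lay nearest day 3 over all genes.

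Cox8a, the ubiquitous isoform of subunit VIII, measured 166, 105, 141, 120.4 and 107 FPKM without injury and 313, 280.2, 321, 320.4 and 206 on day 3. It ranged from 117 to 301 on day 7 (median 182) and from 101 to 203 on day 14 (median 176), and measured 178, 191, 161, 148 and 163 on day 21. The day 3 samples all lay above the uninjured range, and 4 of 6 on day 7, 3 of 6 on day 14 and 2 of 5 on day 21 did so.

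Cox7a2, the ubiquitous isoform of subunit VIIa, measured 495, 389, 500.4, 410.1 and 354 FPKM without injury and 233, 226, 155, 129 and 304 on day 3. It ranged from 119 to 382 on day 7 (median 219) and from 128 to 346 on day 14 (median 269), and measured 325, 410.3, 333, 319 and 350.3 on day 21. Unlike the other ubiquitous isoforms, it lay below the uninjured range in all 5 samples on day 3, in 5 of 6 on day 7, in 6 of 6 on day 14 and in 4 of 5 on day 21.

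**Figure D1:**
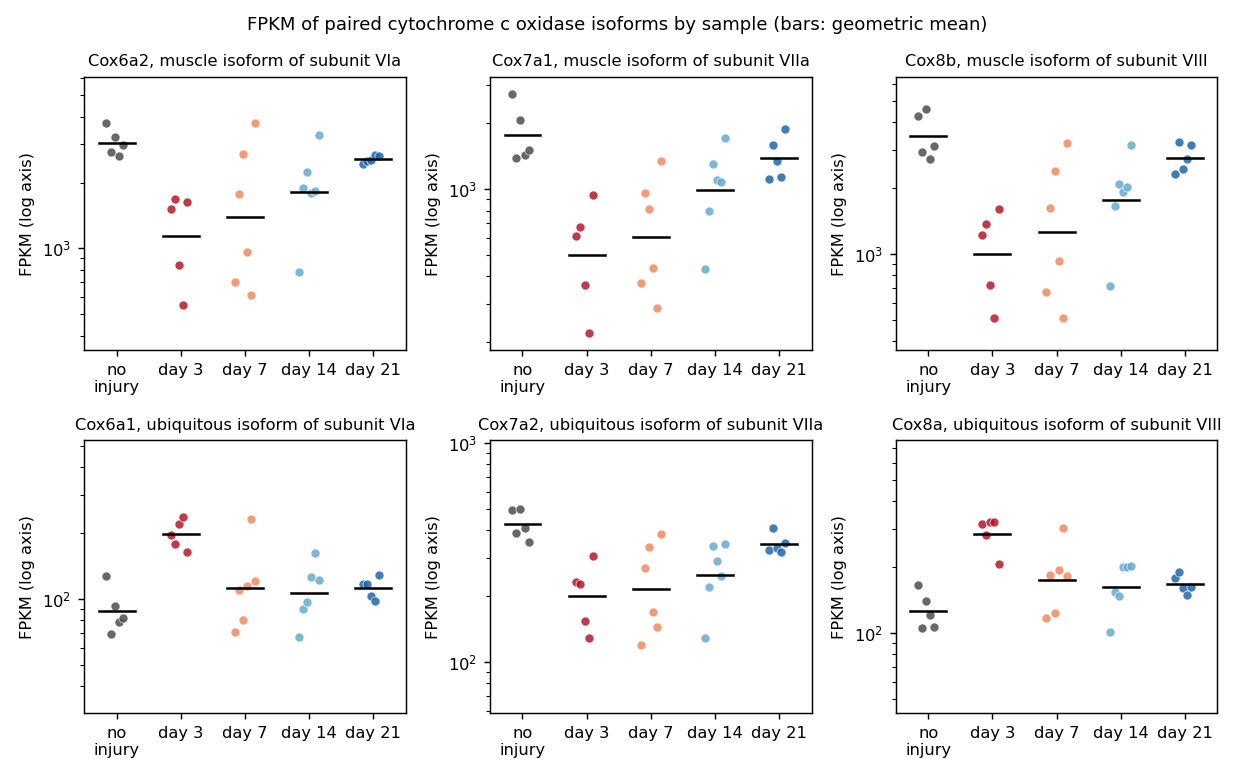
FPKM of the muscle isoforms (upper row) and ubiquitous isoforms (lower row) of subunits VIa, VIIa and VIII, on log axes, for each of the 27 samples, with a bar at the geometric mean of each group. At day 3 all 5 samples lie below the uninjured samples for Cox6a2, Cox7a1, Cox8b and Cox7a2, and above them for Cox6a1 and Cox8a.

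Of the 4 further genes, Cox4i1 and Cox6b1 were also low on day 3. Cox4i1 measured 1510, 909, 1555, 960.0 and 1224 FPKM without injury and 565, 780.4, 465, 382 and 773 on day 3, and its day 21 samples (933, 915, 916, 984 and 914) all lay within the uninjured range. Cox6b1 measured 1600, 949, 1694, 1030 and 1066 without injury and 680, 793, 462, 379 and 897 on day 3, and 2 of its 5 day 21 samples lay below the uninjured range. All day 3 samples of both genes lay below the uninjured range.

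Cox7a2l had its lowest mean on day 14. It averaged 164 ± 25.1 FPKM (SD, n = 5) without injury, 131 ± 8.87 on day 3, 123 ± 20.9 (n = 6) on day 7, 101 ± 18 (n = 6) on day 14 and 136 ± 14.2 on day 21. All 6 day 14 samples, from 77.8 to 126, lay below the uninjured range of 130.4 to 199. Cox4i2 averaged 8.29 ± 4.07 on day 3, 10.1 ± 6.50 on day 7, 13.5 ± 8.71 on day 14 and 14.1 ± 2.15 on day 21, and its groups overlapped at every day.

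Each day was compared with no injury by limma on log2(FPKM + 1), fitted over 14630 genes with all 27 samples, with two-sided p-values adjusted by the Benjamini-Hochberg method within each comparison. A gene was called at an adjusted p under 0.05. The 4 comparisons share the 5 uninjured samples and are not independent.

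At day 3, 6 of the 10 genes were called lower, against a background of 19.8% of all tested genes called lower, and 2 were called higher, against 23.4%. The largest log2 fold changes were -1.82 for Cox7a1 (SE 0.41, limma adjusted p = 0.00086), -1.79 for Cox8b (SE 0.42, adjusted p = 0.00139) and -1.42 for Cox6a2 (SE 0.42, adjusted p = 0.00783). Cox7a2 fell by 1.09 on the log2 scale (adjusted p = 0.00416), Cox4i1 by 1.07 (adjusted p = 0.00173) and Cox6b1 by 1.01 (adjusted p = 0.00937). Cox8a rose by 1.17 (SE 0.22, adjusted p = 0.000178) and Cox6a1 by 1.16 (SE 0.25, adjusted p = 0.000539). Cox4i2 (-0.61, adjusted p = 0.183) and Cox7a2l (-0.31, adjusted p = 0.0936) were not called, and both turned positive (0.13 and 0.51) when each sample was scaled to a common sum of FPKM.

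The scaling between samples decided part of these calls. The median log2 fold change of all tested genes on day 3 was 0.01 with the deposited FPKM and 0.51 with a common sum per sample. With a common sum, Cox6a2, Cox7a1 and Cox8b were the 3 genes called lower and Cox6a1 and Cox8a the 2 called higher, while Cox4i1, Cox6b1 and Cox7a2 were no longer called (-0.25, -0.19 and -0.26, adjusted p = 0.245, 0.380 and 0.184). Of all 14630 tested genes, 322 were called lower and 6868 higher on day 3 with a common sum. Relative to the median of all genes under that scaling, Cox7a1 was at -1.5, Cox8b at -1.47, Cox6a2 at -1.10, Cox7a2 at -0.77, Cox4i1 at -0.75 and Cox6b1 at -0.69, and Cox6a1 and Cox8a were at 1.47 and 1.48.

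At day 7, 7 genes were called lower, against a background of 14.4%, and 0 were called higher, against 15%. Cox7a1 (-1.54, SE 0.39, limma adjusted p = 0.0051), Cox8b (-1.45, SE 0.41, adjusted p = 0.00944) and Cox6a2 (-1.12, SE 0.40, adjusted p = 0.0363) again had the largest changes, followed by Cox4i1 (-1.05), Cox6b1 (-1.01), Cox7a2 (-0.98) and Cox7a2l (-0.41). Cox6a1 (0.35, adjusted p = 0.274) and Cox8a (0.46, adjusted p = 0.0987) did not pass. With a common sum per sample, Cox7a1 and Cox8b alone were called lower and Cox6a1 and Cox8a were called higher, the median of all genes then being 0.48 and the value of Cox7a2l 0.31. Of all 14630 tested genes, 209 were called lower and 6304 higher on day 7 with a common sum. The call of Cox6a2 was lost without no injury replicate 1, 2, 3 or 5 or day 7 replicate 1, 4 or 5 (adjusted p up to 0.105), and that of Cox7a2l without no injury replicate 1 or 5 or day 7 replicate 1 or 5 (adjusted p up to 0.0939).

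At day 14, 2 genes were called lower, Cox7a2l (-0.69, SE 0.14, limma adjusted p = 0.0021) and Cox4i1 (-0.74, SE 0.25, adjusted p = 0.0381), against a background of 11.3%, and 0 were called higher, against 9.02%. The muscle isoforms had log2 fold changes of -0.75 (Cox6a2, adjusted p = 0.185), -0.84 (Cox7a1, adjusted p = 0.127) and -0.96 (Cox8b, adjusted p = 0.092). Of the 10 genes, 6 had an unadjusted p under 0.05, beside 5083 of all 14630 tested genes. The call of Cox4i1 was lost without no injury replicate 1, 3 or 5 or day 14 replicate 1, 2, 4 or 5 (adjusted p up to 0.0977), and both calls were lost with a common sum per sample and with quantile normalization. In the other direction, the count of 2 rose to 4 without day 14 replicate 6, when Cox6b1 and Cox7a2 were also called lower, and to 5 with sample quality weights, when Cox6b1, Cox7a2 and Cox8b were.

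At day 21, 0 genes were called lower, against a background of 1.69%, and 0 higher, against 1.74%, by limma, and 0 had an unadjusted p under 0.05. The log2 fold changes ran from -0.37 (Cox4i1, SE 0.26) to 0.41 (Cox8a, SE 0.22), with -0.25 (SE 0.42) for Cox6a2, -0.35 (SE 0.41) for Cox7a1 and -0.33 (SE 0.42) for Cox8b. In 13 of 14 other settings the count was 0 in both directions, and with sample quality weights Cox8a was called higher (0.45, adjusted p = 0.0397). Those weights called 1196 of the 14630 tested genes higher on day 21.

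The median log2 fold change of the 10 genes was -1.04 on day 3, -0.99 on day 7, -0.74 on day 14 and -0.28 on day 21, beside 0.01, 0.03, 0.02 and 0.01 for all tested genes. Against day 3, day 21 was higher for 5 genes, Cox7a1 (1.47), Cox8b (1.46), Cox6a2 (1.16), Cox7a2 (0.79) and Cox4i1 (0.71), against a background of 9.23%, and lower for 2, Cox6a1 (-0.81) and Cox8a (-0.76), against 16.2%. The limma adjusted p-values of the 5 increases ran from 0.00993 (Cox7a1) to 0.0498 (Cox7a2). The count of 5 dropped to 1 without day 3 replicate 4, to 2 without day 3 replicate 3 or any of the 5 day 21 samples, and to 3 without no injury replicate 1, 4 or 5, day 3 replicate 1, day 7 replicate 4 or day 14 replicate 2, 3, 4 or 5.

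**Figure D2:**
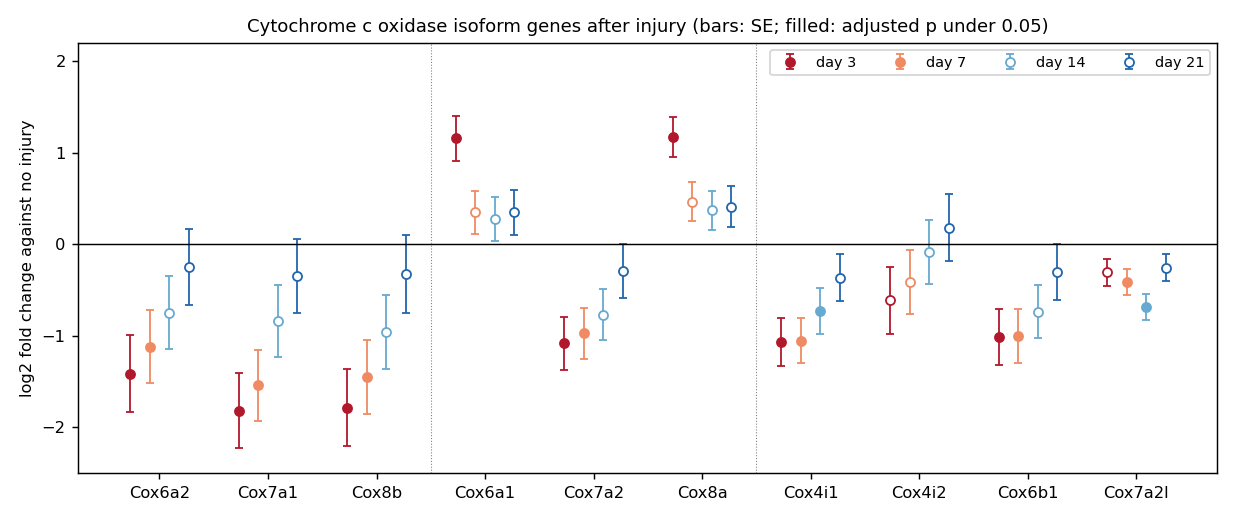
Log2 fold change of FPKM + 1 against no injury (y axis) for the 10 genes (x axis) at days 3, 7, 14 and 21, with bars for the SE of limma and filled symbols for an adjusted p under 0.05. Cox6a1 and Cox8a on day 3 are the filled symbols above 0, and no symbol is filled on day 21.

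The balance of the isoforms within a sample was read from the ratio of muscle to ubiquitous FPKM, which is free of any scaling between samples. Uninjured muscle held 34.6 times as much Cox6a2 as Cox6a1 (geometric mean), 27.4 times as much Cox8b as Cox8a and 4.15 times as much Cox7a1 as Cox7a2. At day 3 these ratios were 5.78, 3.52 and 2.5. The muscle form then made up 83.8% ± 9.04 of the FPKM of the VIa pair (SD, n = 5, from 97.2% ± 0.31 without injury), 76.4% ± 10.9 of the VIII pair (from 96.5% ± 0.47) and 71.2% ± 5.01 of the VIIa pair (from 80.5% ± 2.74).

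The ratio of Cox6a2 to Cox6a1 was 29.4, 39.7, 34.7, 33.8 and 36.3 without injury and 7.74, 9.41, 3.80, 2.34 and 9.94 on day 3. It ranged from 2.64 to 33.9 on day 7 (median 13) and from 11.3 to 27.1 on day 14 (median 17.5), and was 20.7, 21.5, 24.6, 27.2 and 20.5 on day 21. All samples at days 3, 14 and 21 and 4 of 6 on day 7 lay below the uninjured range. The 2 that overlapped it on day 7 were replicates 3 and 6, the samples with the highest muscle marker sums of that day (117756 and 107952 FPKM) and the lowest leukocyte marker sums (125 and 45.7).

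The ratio of Cox8b to Cox8a was 25.7, 27.9, 32.7, 22.7 and 29.2 without injury and 3.91, 4.92, 2.26, 1.60 and 7.78 on day 3. It ranged from 1.71 to 19.6 on day 7 (median 7.33) and from 7.06 to 15.6 on day 14 (median 10.5), and was 13.1, 17, 15.1, 18.4 and 19.3 on day 21. Every sample of every VML group lay below the uninjured range.

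The ratio of Cox7a1 to Cox7a2 was 5.5, 3.59, 4.15, 3.50 and 4.29 without injury and 2.62, 2.96, 2.37, 1.70 and 3.09 on day 3. It ranged from 1.99 to 3.6 on day 7 (median 2.85) and from 3.37 to 4.95 on day 14 (median 3.84), and was 3.43, 3.90, 4.05, 3.56 and 5.38 on day 21. The day 3 samples and 4 of 6 on day 7 lay below the uninjured range, and 1 of 6 on day 14 and 1 of 5 on day 21 did so. On day 7, replicates 2 and 6 lay within that range, with muscle marker sums of 67574.5 and 107952 FPKM. Replicate 3, with the highest muscle marker sum of that day (117756 FPKM), lay below it at 2.41.

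**Figure D3:**
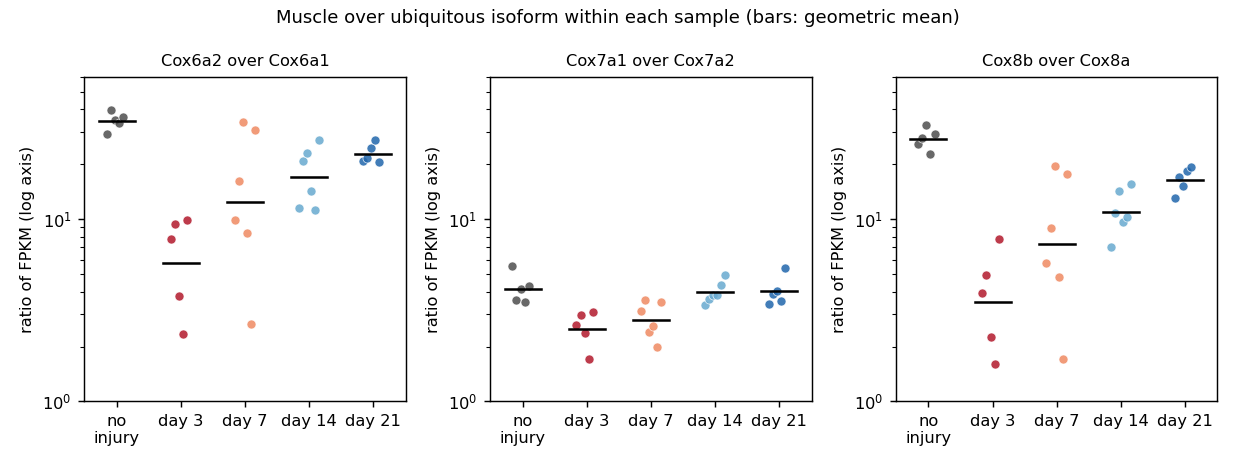
Ratio of muscle to ubiquitous isoform FPKM within each of the 27 samples (log y axis, the same in the 3 panels) by group, with a bar at the geometric mean. At day 21 the samples of Cox6a2 over Cox6a1 and of Cox8b over Cox8a all lie below the uninjured samples, whereas those of Cox7a1 over Cox7a2 overlap them.

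Differences in the log2 ratio were tested with two-sided exact permutation tests, adjusted by the Benjamini-Hochberg method over 15 comparisons. Against no injury, the log2 ratio of Cox6a2 to Cox6a1 changed by -2.58 on day 3, -1.48 on day 7, -1.03 on day 14 and -0.60 on day 21 (exact adjusted p = 0.0119, 0.0325, 0.0119 and 0.0119). That of Cox8b to Cox8a changed by -2.96, -1.92, -1.33 and -0.74 (exact adjusted p = 0.0119, 0.0148, 0.0119 and 0.0119). Both pairs thus stayed below uninjured muscle on day 21, by 1.52-fold and 1.67-fold, while no gene of either pair was called on its own. That of Cox7a1 to Cox7a2 changed by -0.73 on day 3 and -0.57 on day 7 (exact adjusted p = 0.0119 and 0.0244), and by -0.07 (SE 0.14) on day 14 and -0.05 (SE 0.16) on day 21, where it did not pass (exact adjusted p = 0.691 and 0.722). With 5 samples a group the smallest unadjusted p is 0.00794, and with 5 against 6 it is 0.00216.

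From day 3 to day 21 the log2 ratio rose by 1.98 for Cox6a2 to Cox6a1, 2.22 for Cox8b to Cox8a and 0.68 for Cox7a1 to Cox7a2 (exact adjusted p = 0.0119 for each), and the day 3 and day 21 samples did not overlap for any pair. The day 7 call for the VIa pair was lost without any of the 5 uninjured samples or day 7 replicate 1, 2, 4 or 5 (change of -1.55 to -1.03, exact adjusted p up to 0.0769), and that for the VIIa pair without no injury replicate 1, 3 or 5 (exact adjusted p up to 0.0595). The calls at days 3 and 21 held without each sample in turn.

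At day 3 the VIa and VIII pairs changed more than the VIIa pair. The difference between the changes in log2 ratio was tested in the same way over 12 comparisons chosen after the values were seen. The VIII pair changed by a further -2.23 on day 3, -1.35 on day 7, -1.27 on day 14 and -0.69 on day 21 compared with the VIIa pair (exact adjusted p = 0.0238, 0.0617, 0.013 and 0.0346). The VIa pair changed by a further -1.85, -0.91, -0.96 and -0.55 (exact adjusted p = 0.0238, 0.149, 0.0346 and 0.0857). The VIII pair against the VIa pair differed by -0.38 (SE 0.15), -0.44 (SE 0.10), -0.31 (SE 0.15) and -0.14 (SE 0.15), and passed on day 7 only (exact adjusted p = 0.0617, 0.013, 0.0837 and 0.365). The day 21 call of VIII against VIIa was lost without no injury replicate 2, 3, 4 or 5, and the day 14 call of VIa against VIIa without any of those or day 14 replicate 1, 4 or 5.

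Most other subunits of the complex also fell on day 3 and day 7. Of 12 other structural subunits, 10 were tested (Cox7b2 and Cox8c, which are mainly testicular, were at or near 0), and 9 were called lower on day 3, 8 on day 7, 4 on day 14 and 0 on day 21. The share of all tested genes called lower was 19.8%, 14.4%, 11.3% and 1.69% on these days. The largest decrease on day 3 was in mt-Co3, a core subunit encoded by the mitochondrial genome (log2 fold change -2.52, SE 0.58, limma adjusted p = 0.00117). The tested subunit called higher on day 3 was Cox6b2, known as the testis isoform of subunit VIb (1.07, SE 0.29, adjusted p = 0.00464), and it was also called on day 7 (0.76, adjusted p = 0.0423) but not on day 14 or day 21. The median over the 10 was -1.22 on day 3, -1.13 on day 7, -0.66 on day 14 and -0.33 on day 21. At day 21, 1 of the 10 had an unadjusted p under 0.05, beside 2898 of all 14630 tested genes. With a common sum per sample, 4 were called lower on day 3, beside 322 of all 14630 tested genes.

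Assembly factors, which insert haem and copper and mature the core subunits, formed a separate list. Of 24, 22 were tested (Sco2 and Pet117 were listed at 0), and 8 were called lower on day 3, 7 on day 7, 7 on day 14 and 0 on day 21, with 0 called higher on any day. Of all tested genes, 19.8%, 14.4%, 11.3% and 1.69% were called lower and 23.4%, 15%, 9.02% and 1.74% higher. The median was -0.42, -0.45, -0.43 and -0.07. At day 3 the values ran from -1.02 for Cox10, which makes haem O for the enzyme (SE 0.18, limma adjusted p = 8.4e-05), to 0.20 for Coa4 (adjusted p = 0.409). At day 21, 4 of the 22 had an unadjusted p under 0.05, beside 2898 of all 14630 tested genes. With a common sum per sample, 0 were called lower and 4 higher on day 3, beside 322 lower and 6868 higher of all 14630 tested genes.

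Markers of other cell types moved in the same samples. The shares of all tested genes at days 3, 7, 14 and 21 were 19.8%, 14.4%, 11.3% and 1.69% called lower. Those called higher were 23.4%, 15%, 9.02% and 1.74%. All 10 muscle fibre markers were called lower on day 3, 4 on day 7, 1 on day 14 and 0 on day 21, with a median log2 fold change of -1.44, -0.92, -0.66 and -0.26. All 8 leukocyte markers were called higher on day 3, 7 on day 7, 2 on day 14 and 0 on day 21. Their summed FPKM was 45.7 to 2028 on day 7, 44.5 to 104 on day 14 and 31.2 to 57.3 on day 21, the last above the 16.3 to 25 without injury in all 5 samples. Of 6 fibroblast markers 5 were called higher at days 3, 7 and 14 and 2 on day 21, when they summed to 148 to 241 FPKM against 56.5 to 138 without injury. Endothelial markers gave 1 of 5 called lower on each day, and mural cell markers 4 of 6 lower and 1 higher on day 3, 2 lower on day 7, 1 lower on day 14 and 0 on day 21. Of 4 tested adipocyte markers 3 were called higher on day 7 and 0 on the other days. Cox7a1 and Cox8b are also known from brown fat, whose defining marker Ucp1 was at or under 0.18 FPKM in every sample. Cidea, also listed for brown adipocytes, had log2 fold changes of 0.28, 0.12, 0.41 and 0.52 at days 3, 7, 14 and 21. It was not called on any day (limma adjusted p = 0.200, 0.633, 0.0854 and 0.0921). The part of these cell types in the isoform ratios was not tested.

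**Figure D4:**
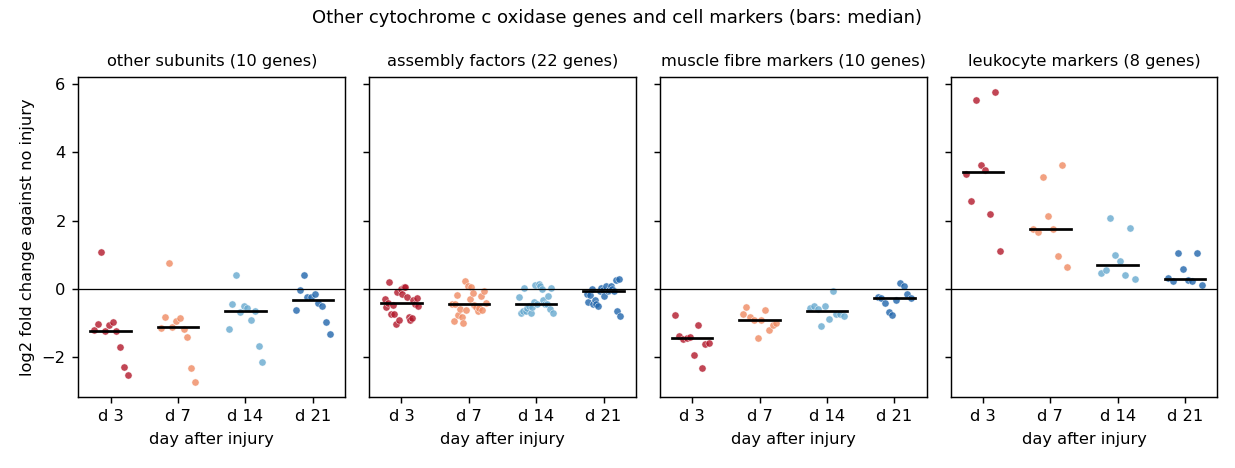
Log2 fold change against no injury (y axis) of each tested gene of 4 lists at days 3, 7, 14 and 21 (x axis), with a bar at the median. The median of the other subunits runs from -1.22 on day 3 to -0.33 on day 21 and that of the assembly factors from -0.42 to -0.07, beside muscle fibre and leukocyte markers.

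Likeness to the other tested genes was described by Pearson's r of log2(FPKM + 1) over the 27 samples, which share the day after injury and the scaling. The genes most like Cox6a2 were Cox8b (r = 0.982), Tnni2, a fast-fibre troponin (0.980), and Uqcrb of complex III (0.977). Those most like Cox7a1 were Atp5h of the ATP synthase (0.990) and Ndufa6 and Ndufb9 of complex I (0.983 and 0.982), and those most like Cox8b were Ndufb9, Ndufb11 and Ndufc1 of complex I (0.992, 0.989 and 0.986). Cox4i2 stood with genes known from endothelium and adipose tissue, Gpihbp1 (0.917), Fabp4 (0.902) and Egfl7 (0.896). After each group's mean was removed, these values were 0.884 to 0.987.

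Among the pairs, Cox7a1 and Cox7a2 had an r of 0.948, and of 0.934 after removing group means. Cox6a2 and Cox6a1 had -0.39 and -0.05, and Cox8b and Cox8a -0.44 and 0.02. The ubiquitous Cox6a1 and Cox8a had 0.964 and 0.932 with each other.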

How the data were processed

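Bulk RNA sequencing was performed by the study on 27 tibialis anterior samples from poly-T selected, non-directional libraries. Reads were aligned with HISAT2 2.0.5 and counted per gene with featureCounts 1.5.0-p3 per the submitters' processing notes, and the authors deposited FPKM per sample. The scaling between samples and the genome build are not given in the sources used here. FPKM times gene length gave whole reads for all genes (tolerance 0.01). Of 54409 genes found in GENCODE M21 (GRCm38), 98.3% had the same coordinates. Groups came from the sample titles, and 0 columns lacked a sample.

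The deposited FPKM was transformed to log2(FPKM + 1), and limma 3.58.1 (R 4.3.3) was applied to the 14630 genes reaching an FPKM of 0.5 in 5 or more samples, using a mean per group, a variance trend and Benjamini-Hochberg adjustment over all tested genes at 0.05. The fit was tested on simulated data. Isoform ratios were compared with exact permutation tests in Python 3.11.15 (numpy 2.4.6, pandas 2.3.3, matplotlib 3.10.9). All 10 genes are named. Of the other subunits and assembly factors, those with the highest and lowest log2 fold change at day 3 and any called at day 21 are named, and the 3 most similar genes are given for Cox6a2, Cox7a1, Cox8b and Cox4i2. Members, marker lists and tests were chosen with earlier results of these data known. Alternatives covered pseudocounts, filters, normalizations, voom weights on the recovered reads, replicate blocks and each sample left out in turn. Sample quality weights, both replicate 5 samples left out together, and the differences between ratios were added after the data were seen.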

Additional observations from a re-analysis of the deposited data

Results flagged for a closer look

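In 3 of the 65 combinations of gene or ratio and group examined, 1 sample lay far from the others, where chance gives about 1 in 20. Cox4i1 reached 984 FPKM in day 21 replicate 4, Cox4i2 reached 22.8 FPKM in day 7 replicate 6, and Cox6a1 reached 232 FPKM in day 7 replicate 5. At day 21 the other 4 Cox4i1 values lay between 914 and 933 FPKM, all within the uninjured range, so the distance is small in FPKM. Day 7 replicate 5 also held the highest leukocyte marker sum of its group (2028 FPKM), and the relation of the 2 was not tested.

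The change against no injury differed between day 21 and day 3 for 7 genes by limma, which is the comparison of day 21 with day 3 given above. Of all tested genes, 9.23% were called higher and 16.2% lower. With each sample left out in turn, 1 to 6 members were called higher and 1 to 2 lower. The difference on the log2 scale was 0.71 for Cox4i1 (limma adjusted p = 0.0473), 1.16 for Cox6a2 (adjusted p = 0.0414), 1.47 for Cox7a1 (adjusted p = 0.00993), 0.79 for Cox7a2 (adjusted p = 0.0498), 1.46 for Cox8b (adjusted p = 0.0132), -0.81 for Cox6a1 (adjusted p = 0.0178) and -0.76 for Cox8a (adjusted p = 0.0138). The log2 isoform ratios differed by 1.98 for Cox6a2 over Cox6a1, 0.68 for Cox7a1 over Cox7a2 and 2.22 for Cox8b over Cox8a (exact permutation adjusted p = 0.0119 for each).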

How the results depend on the processing

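Pseudocounts of 0.1 and 0.5, median-ratio scaling and voom weights changed no count of the 10 genes by over 1.5 times. With a common sum per sample, members called lower were 3, 2 and 0 at days 3, 7 and 14, members called higher 2 on day 7 and 1 on day 14, and day 21 exceeded day 3 for 2. Over all 14630 tested genes, that scaling called 322, 209 and 107 lower and 6868, 6304 and 1678 higher at days 3, 7 and 14. Against day 3, it called 169 genes higher on day 21. Other subunits called lower were then 4, 4 and 2 at days 3, 7 and 14, and assembly factors 0, 0 and 0, with 4 assembly factors called higher on day 3 and 1 on day 7. With quantile normalization, members called lower were 3 on day 7 and 0 on day 14 and members called higher 2 and 1, other subunits called lower 5 on day 7 and 2 on day 14 and called higher 0 on day 7, and assembly factors called lower 1 on day 21. Over all tested genes, quantile normalization called 2147 and 1304 lower and 1700 and 1007 higher at days 7 and 14. On day 21 it called 141 lower. Without the filter, members called lower on day 14 were 1 and members above day 3 on day 21 were 2, other subunits called higher on day 7 were 0 and called lower on day 14 were 2, and assembly factors called lower on day 14 were 4. Of all 31179 genes then tested, 1794 were higher on day 7, 1243 lower on day 14 and 928 higher on day 21 against day 3. An FPKM minimum of 1 gave 1 assembly factor lower on day 21, beside 279 of all 12241 genes then tested. Fits of the 2 compared groups gave 5 other subunits lower and 0 higher on day 7 and 2 assembly factors lower on day 21. Over all tested genes, these fits gave 1467 lower and 1434 higher on day 7, and 720 lower on day 21. Sample quality weights gave 5 members lower on day 14 and 1 higher on day 21, 1 other subunit lower and 3 assembly factors lower on day 21. Over all tested genes, these weights gave 2293 lower on day 14, and 1275 lower and 1196 higher on day 21. Without replicate 5 of both day 3 and day 7, the ratio of Cox6a2 to Cox6a1 on day 7 changed by -1.03 (exact permutation adjusted p = 0.055), 0 other subunits were higher on day 7 and 1 assembly factor was lower on day 21. Over all tested genes, 1820 were then higher on day 7 and 333 lower on day 21. The causes were not tested.

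Replicate numbers showed no clear pairing of the samples. Deviations of 51 pairs with the same number correlated at -0.52 to 0.57 (median -0.0031), with 15 over 0.1, and 7 of 27 samples correlated best with their own number. For the 49 pairs with the same letter in the descriptions the median was 0.02, and 5 of 27 did so. Such correlations cannot exclude a pairing. Over all tested genes on day 21, calls were 247 lower and 255 higher without a block, 405 and 390 with the number, and 675 and 558 with the letter. With the number as a replicate block, members called lower were 6 on day 3 and 7 on day 14 (Cox6a2, Cox6b1, Cox7a1, Cox7a2 and Cox8b beside Cox4i1 and Cox7a2l), other subunits higher 0 on day 7, and assembly factors lower 11 on day 7 and 1 on day 21. With the letter as a replicate block, these were 6, 5, 0, 11 and 2, and 2 members were higher on day 21 than on day 3. Over all tested genes, the number gave 3025, 2491 and 2041 lower at days 3, 7 and 14. The letter gave 2961, 2465 and 2023, and the fit without a block 2899, 2107 and 1649. Calls higher on day 7 were 2495 with the number, 2499 with the letter and 2189 without a block. Against day 3, day 21 was higher for 919 genes with the letter and 1351 without a block. Over the 5 pairs of the same number, the ratio of Cox6a2 to Cox6a1 changed by -1.74 on day 7 and -1.16 on day 14.

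Of the signs that turned, 1 belonged to a called change, that of Cox7a2l on day 7. With a common sum, Cox4i2 was at 0.13, 0.24 and 0.34 at days 3, 7 and 14, and Cox7a2l at 0.51 and 0.31 at days 3 and 7 and at -0.58 for day 21 against day 3. With quantile normalization, Cox4i2 and Cox6a2 were at 0.034 and 0.026 on day 14, Cox6a2, Cox7a1 and Cox8b at 0.24, 0.0064 and 0.058 on day 21, and Cox7a2l at -0.024 for day 21 against day 3.

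With each sample left out in turn, members called higher on day 7 were 0 to 1, called lower on day 14 1 to 4, and higher and lower on day 21 against day 3 1 to 6 and 1 to 2. Other subunits higher on day 7 were 0 to 1 and lower on day 14 2 to 4. Assembly factors lower were 5 to 9, 5 to 11, 4 to 8 and 0 to 1 at days 3, 7, 14 and 21. Cox4i2 on day 14 ran from -0.34 to 0.15. The log2 ratio of Cox6a2 to Cox6a1 on day 7 ran from -1.76 to -1.03, and that of Cox7a1 to Cox7a2 from -0.64 to -0.46 on day 7, -0.13 to 0.037 on day 14 and -0.16 to 0.052 on day 21. The VIa pair minus the VIIa pair ran from -1.24 to -0.56, -1.12 to -0.81 and -0.71 to -0.41 at days 7, 14 and 21, the VIII minus the VIIa pair from -1.68 to -1.04 and -0.81 to -0.63 at days 7 and 21, and the VIII minus the VIa pair from -0.47 to -0.31 and -0.41 to -0.25 at days 3 and 14.

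The deposited scaling limits statements on absolute levels, since a common sum brings the median of all genes on day 3 from 0.01 to 0.51. Depth limits Cox4i2 most, which had the fewest recovered reads of the 10 genes.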
